A study of Mus musculus with 6 samples.

Results

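Peroxisomes are single-membrane organelles that shorten very-long-chain, branched and dicarboxylic fatty acids, handle bile acid intermediates, start ether lipid synthesis and break down the hydrogen peroxide their oxidases make. Peroxins, the products of the Pex genes, build the membrane and bring in the enzymes. In rodent liver many of the fatty acid enzymes are known targets of the nuclear receptor PPAR alpha, which responds to fatty acids. The 36 genes described here were chosen by symbol, as 13 peroxins and 23 peroxisomal enzymes and transporters, out of 20107 genes in the count table, and all 36 had a row and passed the filter on low counts.

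The livers came from 6 male wild-type C57BL/6N (Envigo) mice aged 16 weeks, described as littermates. The HFHC group, 3 mice (replicates 1, 2 and 3), had free access for 8 weeks, from 8 weeks of age, to a high-fat, high-calorie food with fructose and to a high-fructose drink. The Chow group, 3 mice (replicates 7, 8 and 9), ate chow to the same age. Whole liver was sequenced as rRNA-depleted total RNA, so a change in the number of cells of a type and a change of RNA per cell cannot be told apart. Food and drink were given together, and their effects cannot be told apart either.

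HFHC libraries held 30096409 to 30871297 counts, against 26767416 to 27339613 in Chow libraries (exact two-sided permutation p = 0.1, the smallest that 3 against 3 can give). Levels below are CPM, counts scaled to the library size after TMM factors, and changes are log2 fold changes of HFHC over Chow ± SE. A gene passed the test at an adjusted p under 0.05 in edgeR's quasi-likelihood test over 14896 genes with Benjamini-Hochberg adjustment. The hepatocyte markers, all 8 in the table, summed to 79793 to 83292 CPM in HFHC and 71968 to 90767 CPM in Chow livers, and 1 of them, Cps1, was lower. Summed Kupffer cell and macrophage markers stood at 244.4 to 294.8 CPM in HFHC and 204.9 to 243.6 CPM in Chow livers, with none of 6 passing singly, and their part in the results below was not tested. Sums for stellate, sinusoidal endothelial, cholangiocyte, neutrophil and lymphoid markers overlapped between the diets, and 1 of 4 pancreatic acinar and none of 3 adipocyte markers had a row.

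Of the 36 genes, 11 rose in HFHC livers and none fell, where 3.38% of all tested genes rose and 3.30% fell (6.67% in either direction). The count of 11 was 7, 7 and 9 without HFHC replicates 1, 2 and 3, was 4, 10 and 7 without Chow replicates 7, 8 and 9, and was 0 with a clock index as a covariate, a fit chosen after seeing the data and described further on. Over all tested genes the count that rose, 503, was 290, 267 and 382 without HFHC replicates 1, 2 and 3. It was 207, 527 and 264 without Chow replicates 7, 8 and 9, and 35 with the clock index. The 11 of the 36 genes that rose were Abcd2, Acaa1b, Crat, Pex11a, Decr2, Ehhadh, Abcd3, Pex16, Pex19, Acaa1a and Pex11g, with log2 fold changes of 0.29 to 1.56, 2 of them at least 2-fold. They encode fatty acyl transporters (Abcd2, Abcd3), enzymes of beta-oxidation (Ehhadh, Acaa1a, Acaa1b) and its auxiliary step Decr2, a carnitine acetyltransferase (Crat), and peroxins of membrane assembly (Pex16, Pex19) and of division (Pex11a, Pex11g). Among the other 25 genes the log2 fold changes ran between -0.25 and 0.32, with 14 above 0 and 11 below, and 3 reached an unadjusted p under 0.05 as higher (Hsd17b4, Pex5 and Pex26) and 1 as lower (Phyh). At that threshold 10.8% of all tested genes were higher and 11.5% lower, genes that passed included. DESeq2 and limma-voom also called none of the 36 lower. The median over all 36 was 0.12, beside a median of -0.003 for all tested genes.

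**Figure D1:**
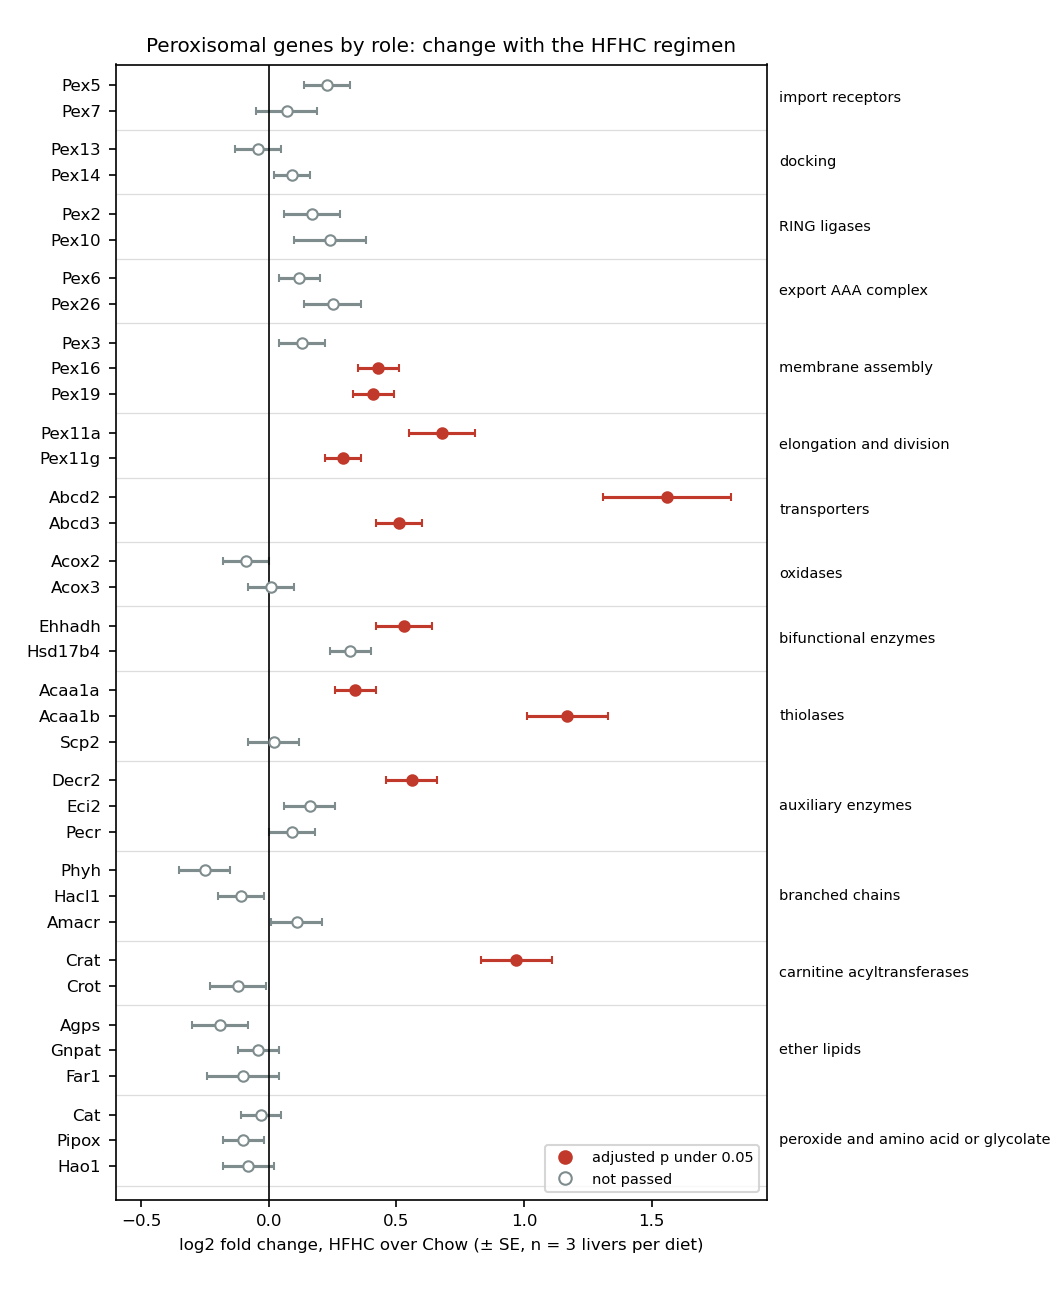
Log2 fold change of HFHC over Chow (horizontal axis) for each of the 36 genes, grouped by role, with bars of 1 SE and n = 3 livers per diet. Filled points passed the test, and these 11 lie between 0.29 and 1.56, while open points lie between -0.25 and 0.32.

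The largest log2 fold change of the 36 genes was that of the membrane transporter Abcd2. Abcd2 encodes an ABC transporter that takes very-long-chain acyl-CoA into the peroxisome, and lies on chromosome 15 at 91145871 to 91191799 (mm10, minus strand). Its level was 12.9, 28.4 and 23.2 CPM in HFHC replicates 1, 2 and 3, against 6.87, 6.57 and 8.41 CPM in Chow replicates 7, 8 and 9. The diets did not overlap, and HFHC replicate 1 stood well below the other HFHC livers. The log2 fold change was 1.56 ± 0.25 (adjusted p = 0.00837), and it stayed between 1.31 and 1.83 when any 1 library was left out. Abcd3, also called PMP70, carries branched-chain and dicarboxylic acyl-CoA and is an abundant protein of the peroxisomal membrane. It stood at 915, 935 and 868 CPM in HFHC livers, against 584, 620.3 and 708 CPM in Chow livers, with no overlap. Abcd3 rose by 0.51 ± 0.09 (adjusted p = 0.0148) but missed the threshold once Chow replicate 7 was left out (adjusted p = 0.0755). Per kilobase of exon the level of Abcd3 was 137 ± 5.19 CPM in HFHC and 96.7 ± 9.6 CPM in Chow livers, and that of Abcd2 was 3.62 ± 1.33 and 1.22 ± 0.166 CPM in the same order of diets (SD, n = 3 each).

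Beta-oxidation in the peroxisome runs from an oxidase through a bifunctional enzyme to a thiolase. Neither oxidase of the set passed. Acox2, which acts on branched chains and bile acid intermediates, stood at 153, 161 and 174 CPM in HFHC livers and 172, 161 and 186 CPM in Chow livers (-0.09 ± 0.09, adjusted p = 0.602), with overlapping diets. Acox3, another branched-chain oxidase, had a log2 fold change of 0.01 ± 0.09 and 28.1 to 33.7 CPM over the 6 livers.

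Ehhadh, the L-bifunctional enzyme (chromosome 16, 21761287 to 21787807, minus strand), had 420.4, 405 and 394 CPM in HFHC livers and 267, 249 and 328 CPM in Chow livers. Every HFHC liver was above every Chow liver, and Chow replicate 9 was the highest of its diet. The change was 0.53 ± 0.11 (adjusted p = 0.021), and the call was lost without HFHC replicate 1 (adjusted p = 0.0658), HFHC replicate 2 (0.0555) or Chow replicate 7 (0.0948). Hsd17b4, the D-bifunctional enzyme that serves branched chains and bile acid intermediates, was just outside the threshold (0.32 ± 0.08, adjusted p = 0.0542). It had 418, 485 and 464 CPM in HFHC livers, against a narrow 370.0, 363 and 366 CPM in Chow livers, with no overlap. DESeq2 (0.0145), limma-voom (0.0497), weighted limma-voom (0.0472) and upper-quartile factors (0.0412) put the adjusted p of Hsd17b4 under the threshold. No other of the 25 genes was called under any setting run.

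The thiolases Acaa1a and Acaa1b, which cut acetyl-CoA from the chain, are paralogs on chromosome 9 at 119339676 to 119350299 (plus strand) and 119148023 to 119157093 (minus strand). Acaa1b had 1142, 1606 and 1275 CPM in HFHC livers, against 471, 665 and 650.5 CPM in Chow livers, a change of 1.17 ± 0.16 (adjusted p = 0.00401) that passed whichever library was left out. The lowest HFHC liver was well above the highest Chow liver. Acaa1a had 193, 216 and 199 CPM in HFHC livers and 157, 169.9 and 152 CPM in Chow livers, also without overlap. Its change of 0.34 ± 0.08 (adjusted p = 0.0395) was less stable. Without HFHC replicate 1, 2 or 3 the adjusted p of Acaa1a was 0.0749, 0.12 or 0.0651, without Chow replicate 7 or 9 it was 0.148 or 0.14, and after correction for a trend on GC content and length it was 0.0561.

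Reads of such close paralogs can be assigned to the wrong gene, and for both the deposited values were fractional in each of the 6 libraries. Their coding sequences, 1272 bases each in GENCODE M21, were identical at 96.5% of positions, with a longest identical run of 327 bases. Of the 75-base stretches in Acaa1b transcripts, 32.3% also occurred in transcripts of another gene, and 12.6% of those in Acaa1a. These shares count each other and also an antisense neighbour, Dlec1 over 11.4% of the exonic bases of Acaa1b and Myd88 over 6.57% of those of Acaa1a. The stretch of 60 coding bases where they differ most, bases 259 to 318 from the A of the start codon, is shown for both because only reads over such bases tell them apart (5′ to 3′, capitals mark the 11 positions that differ).
Acaa1a: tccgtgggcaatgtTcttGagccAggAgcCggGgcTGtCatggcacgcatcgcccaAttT
Acaa1b: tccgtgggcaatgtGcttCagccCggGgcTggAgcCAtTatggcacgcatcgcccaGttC
Counts summed over the pair do not depend on that split. The sum was 1335, 1822 and 1474 CPM in HFHC livers and 629, 835 and 802 CPM in Chow livers, and it rose by 1.03 ± 0.14 (adjusted p = 0.00411). Acaa1b made up 85.5%, 88.1% and 86.5% of the sum in HFHC livers, against 75%, 79.7% and 81.1% in Chow livers (exact two-sided permutation p = 0.1, the smallest possible with 20 assignments). Scp2, the thiolase for branched chains whose gene also encodes a sterol carrier protein, had 3415, 3734 and 4140.5 CPM in HFHC livers and 3871, 3705 and 3594 CPM in Chow livers. These overlapped (0.02 ± 0.10, adjusted p = 0.948), and 25.6% of the 75-base stretches of Scp2 also occurred in pseudogene transcripts.

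**Figure D2:**
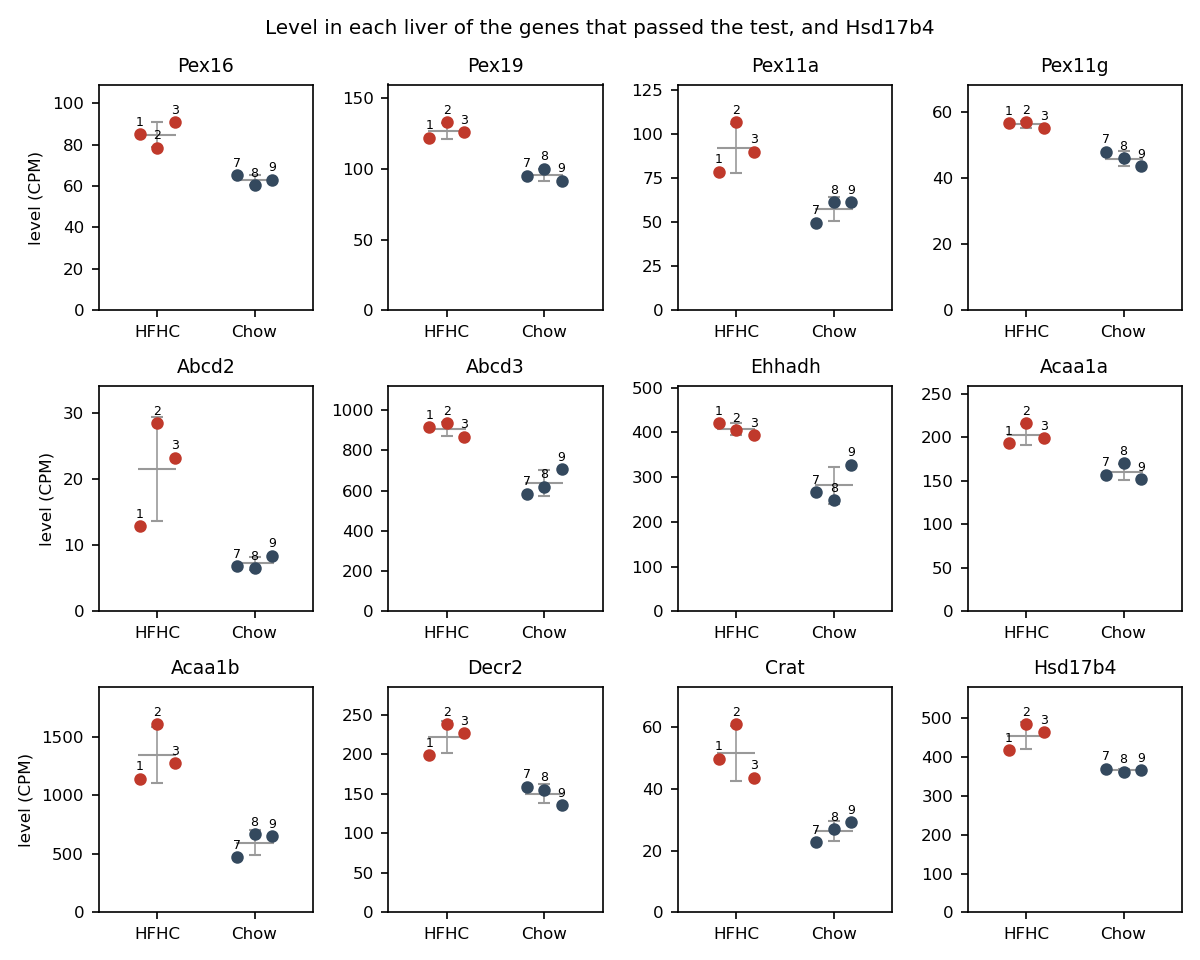
Level in CPM (vertical axes, from 0) in each of 3 HFHC and 3 Chow livers for the 11 genes that passed and for Hsd17b4, with replicate numbers beside the points and grey bars for the mean ± SD. In each panel all HFHC livers lie above all Chow livers, and Abcd2 has the widest spread relative to its mean within HFHC, from 12.9 to 28.4 CPM (coefficient of variation 36.6%).

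Auxiliary enzymes such as Decr2 and Eci2 deal with double bonds that the main spiral cannot pass. Decr2, a dienoyl-CoA reductase (chromosome 17, 26081208 to 26090337, minus strand), had 199, 238 and 227 CPM in HFHC livers and 159, 155 and 136 CPM in Chow livers. The diets were apart, with a change of 0.56 ± 0.10 (adjusted p = 0.0107) that passed in all 6 fits that left out a library. Eci2, an enoyl-CoA isomerase, changed by 0.16 ± 0.10 and Pecr, an enoyl-CoA reductase, by 0.09 ± 0.09 on the log2 scale, and neither passed (adjusted p = 0.403 and 0.643). Eci1 and Decr1, the mitochondrial relatives of Eci2 and of Decr2, both passed, as Decr2 did. Eci1 stood at 115, 127 and 128 CPM in HFHC livers and 83.4, 85.2 and 90.6 CPM in Chow livers (0.51 ± 0.08, adjusted p = 0.00709). Decr1 stood at 198, 204 and 225 CPM in HFHC livers and 164, 157 and 164 CPM in Chow livers (0.37 ± 0.08, adjusted p = 0.0265), with a call lost in 5 of 6 fits that left out a library. In those 5, without HFHC replicate 2 or 3 or Chow replicate 7, 8 or 9, the adjusted p of Decr1 was 0.0611, 0.0558, 0.0978, 0.0522 and 0.0802. Whether the isomerases or reductases of the organelles differ in their change was not tested.

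The carnitine acyltransferases hand chain-shortened products on to mitochondria, and 1 of the pair passed. Crat, the carnitine acetyltransferase of peroxisomes and mitochondria (chromosome 2, 30400471 to 30415813, minus strand), had 49.8, 61.0 and 43.7 CPM in HFHC livers, against 22.7, 27 and 29.3 CPM in Chow livers. With no overlap, Crat rose by 0.97 ± 0.14 (adjusted p = 0.00449) and passed whichever library was left out. Crot, the octanoyltransferase, had 708, 699 and 758 CPM in HFHC livers and 914, 676 and 761 CPM in Chow livers. It did not pass (-0.12 ± 0.11, adjusted p = 0.594), and without Chow replicate 7, its highest liver, its log2 fold change was 0.01. A test of the difference between Crat and Crot was not run.

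Among the peroxins, 4 of 13 rose and none fell, beside 3.38% and 3.30% of all tested genes. A positive log2 fold change was seen in 12 of 13, and in 49.5% of all tested genes. The count of 4 was 2, 2 and 3 without HFHC replicates 1, 2 and 3, was 0, 3 and 1 without Chow replicates 7, 8 and 9, was 2 after correction for GC content and length, and was 0 with the clock index. Over all tested genes the count of 503 was 290, 267 and 382, then 207, 527 and 264, then 452 and 35 in the same order. Pex11a and Pex11g encode membrane proteins that elongate peroxisomes before division. Pex11a (chromosome 7, 79735957 to 79743131, minus strand) had 78.9, 107 and 90.3 CPM in HFHC livers and 49.8, 61.6 and 61.7 CPM in Chow livers. All HFHC livers were higher, and the change of 0.68 ± 0.13 (adjusted p = 0.0159) lost its call without Chow replicate 7 (0.0638). Pex11g stood at 56.5, 56.8 and 55.0 CPM in HFHC livers and 47.9, 45.9 and 43.6 CPM in Chow livers. It was just inside the threshold (0.29 ± 0.07, adjusted p = 0.0462). The call of Pex11g was lost in all 6 fits that left out a library, with adjusted p of 0.127, 0.114 and 0.0648 without HFHC replicates 1, 2 and 3 and of 0.108, 0.0719 and 0.17 without Chow replicates 7, 8 and 9. Without the count filter its adjusted p was 0.0526, and after the GC and length correction 0.0784. The antisense gene Gm44775 overlaps 41.1% of the exonic bases of Pex11g, and since the strand setting of the counting is not given in the sources used here, its level is uncertain.

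Pex3, Pex16 and Pex19 insert membrane proteins, Pex19 as the soluble receptor, Pex3 as its docking site and Pex16 as a partner of Pex3. Pex19 (chromosome 1, 172126755 to 172136493, plus strand) had 122, 133 and 126 CPM in HFHC livers, against 95.1, 100.1 and 91.7 CPM in Chow livers. Pex16 (chromosome 2, 92374676 to 92381217, plus strand) had 84.9, 78.5 and 90.8 CPM in HFHC livers, against 65.3, 60.3 and 63.1 CPM in Chow livers. Both were apart between diets, with changes of 0.41 ± 0.08 (adjusted p = 0.015) for Pex19 and 0.43 ± 0.08 (adjusted p = 0.017) for Pex16. The call of Pex19 was lost without HFHC replicate 2 (adjusted p = 0.0558) or Chow replicate 7 (0.0731) or 9 (0.0651). That of Pex16 was lost without HFHC replicate 1 (0.0564) or Chow replicate 7 (0.0559) or 9 (0.0607) and after the GC and length correction (0.0711). Pex3 itself did not pass (0.13 ± 0.09, adjusted p = 0.472), with 24.0 to 29.1 CPM in HFHC livers and 23.4 to 25.5 CPM in Chow livers.

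None of the 8 peroxins of matrix protein import passed by edgeR, DESeq2 or limma-voom, and Pex5 and Pex26 had an unadjusted p under 0.05. Pex5 is the receptor for the C-terminal targeting signal that most matrix enzymes carry. Its levels were 155, 154 and 134 CPM in HFHC livers and 115, 136 and 125 CPM in Chow livers, overlapping by 1 pair of livers (0.23 ± 0.09, adjusted p = 0.176). Pex26, which anchors the ATPase complex that pulls Pex5 back out, had 30.6, 27.3 and 29.0 CPM in HFHC livers and 21.5, 27.9 and 23.5 CPM in Chow livers (0.25 ± 0.11, adjusted p = 0.203). Pex14, of the docking complex, kept to 42.2, 42.0 and 42.8 CPM in HFHC livers and 39.4, 39.1 and 41.0 CPM in Chow livers, apart but with a change of only 0.09 ± 0.07 (adjusted p = 0.521). The antisense gene Gm17029 overlaps 28.3% of its exonic bases. Pex10, a ubiquitin ligase of the RING type, was low at 5.53, 5.22 and 6.2 CPM in HFHC livers and 4.25, 4.68 and 5.47 CPM in Chow livers (0.24 ± 0.14, adjusted p = 0.367). The remaining importers, Pex2 (ligase), Pex6 (ATPase), Pex7 (receptor for the N-terminal signal) and Pex13 (docking), had log2 fold changes of -0.04 to 0.17 and overlapping diets. Summed over the 13 peroxins the level was 885 ± 23.4 CPM in HFHC and 741 ± 15.3 CPM in Chow livers (SD, n = 3 each).

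**Figure D3:**
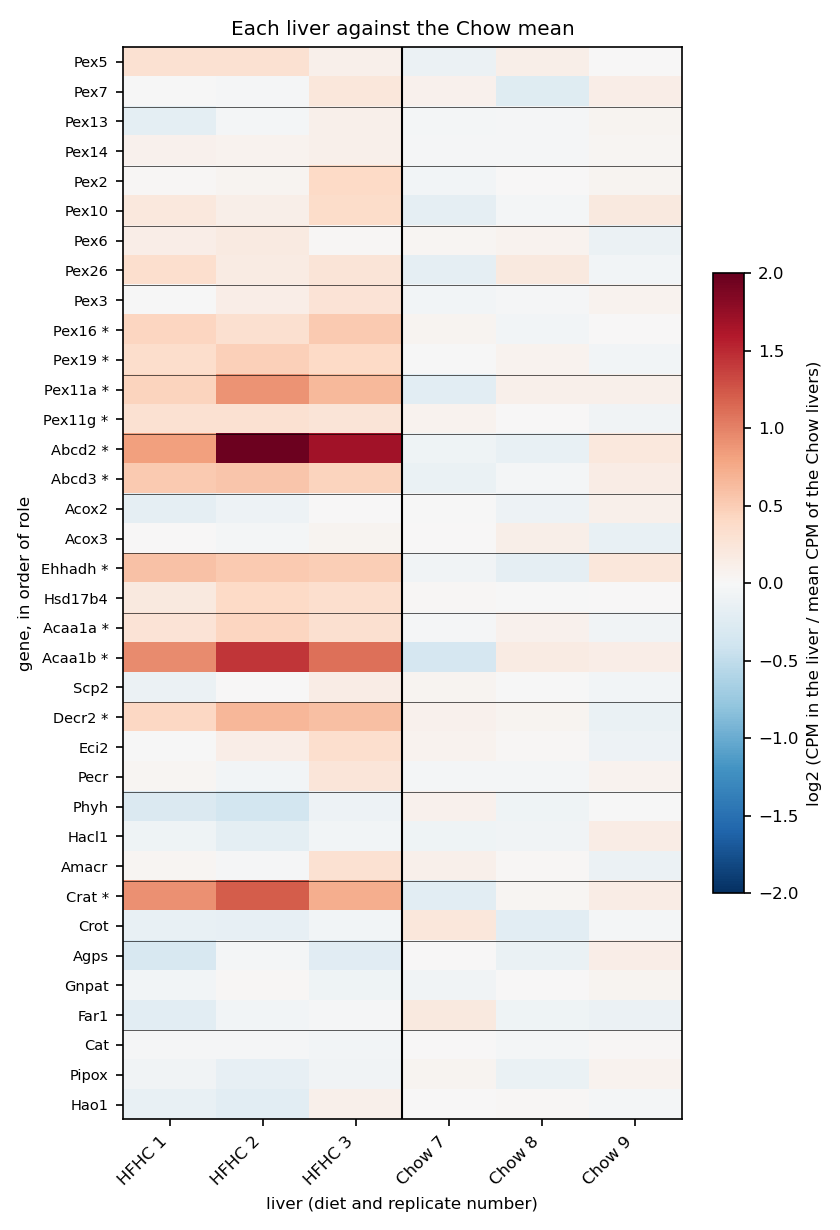
Log2 ratio of the CPM in each liver (columns, HFHC replicates left of Chow replicates) to the mean CPM of the Chow livers, for the 36 genes in order of role (rows, star for the 11 that passed). Abcd2, Acaa1b, Crat and Pex11a form the darkest red rows, with HFHC replicate 2 the darkest cell in each, while the rows of the ether lipid enzymes, Cat, Pipox and Hao1 stay pale in all 6 livers.

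Branched-chain enzymes, ether lipid enzymes and the oxidases and catalase outside fatty acid oxidation held no gene that passed, by edgeR or by DESeq2 or limma-voom. Phyh, the hydroxylase that starts alpha-oxidation of phytanic acid, had 1327, 1257 and 1507 CPM in HFHC livers, against 1717, 1523 and 1619 CPM in Chow livers. All HFHC livers were lower, by a narrow gap between 1507 and 1523 CPM, and Phyh was the single one of the 36 with that pattern (-0.25 ± 0.10, unadjusted p = 0.03, adjusted p = 0.169). HFHC livers were all lower than Chow livers for 1 and all higher for 13 of the 36, and over all tested genes for 14.3% and 13.5% (27.8% for either). Hacl1, the lyase of the same pathway, and Amacr, the racemase that feeds branched chains into beta-oxidation, had log2 fold changes of -0.11 ± 0.09 and 0.11 ± 0.10 with overlapping diets. Gm49387, annotated on the same strand, shares 31.1% of the exonic bases of Hacl1, whose level is therefore uncertain.

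Agps, Gnpat and Far1 make the ether bond of plasmalogens or the alcohol it needs. Agps, the alkyl-transferring synthase, had 15.5, 18.8 and 16.6 CPM in HFHC livers and 19.4, 17.6 and 21.2 CPM in Chow livers (-0.19 ± 0.11, adjusted p = 0.343). Far1, the acyl-CoA reductase, had the lowest level of the 36 per kilobase of exon, 0.535 ± 0.0362 CPM in HFHC livers against 0.572 ± 0.0684 CPM in Chow livers (SD, n = 3 each). Gnpat had a log2 fold change of -0.04 ± 0.08.

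Cat, the catalase that clears hydrogen peroxide, had 2519, 2528 and 2452 CPM in HFHC livers and 2579, 2478 and 2609.6 CPM in Chow livers. The livers overlapped within a few percent of each other (-0.03 ± 0.08, adjusted p = 0.86). Pipox, an oxidase of pipecolate and sarcosine, had 235, 220.5 and 237 CPM in HFHC livers and 257, 226 and 261 CPM in Chow livers (-0.10 ± 0.08, adjusted p = 0.531). Hao1, the glycolate oxidase of liver, ranged from 329 to 411 CPM in HFHC and from 372 to 389 CPM in Chow livers (-0.08 ± 0.10, adjusted p = 0.702).

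Levels between genes were set side by side as CPM per kilobase of exon. Scp2 was highest, at 1082 ± 105 in HFHC and 1070.5 ± 40 in Chow livers, followed by Cat at 957 ± 15.9 and 978 ± 26.3 and Phyh at 720 ± 68.3 and 856 ± 51.3, each with HFHC before Chow (SD, n = 3 each). Scp2 and Cat differed by more than their SDs in both diets, and so did Cat and Phyh. Acaa1b was the fourth in both diets, at 683 ± 122 in HFHC and 304 ± 55.1 in Chow livers, and in HFHC livers it did not differ from Phyh beyond the SDs. With the longest transcript in place of all exons these 4 genes stayed the 4 highest, with Phyh before Cat in Chow livers. Crat ranked 27 in HFHC and 30 in Chow livers, and Abcd2 32 and 35 in the same order.

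**Figure D4:**
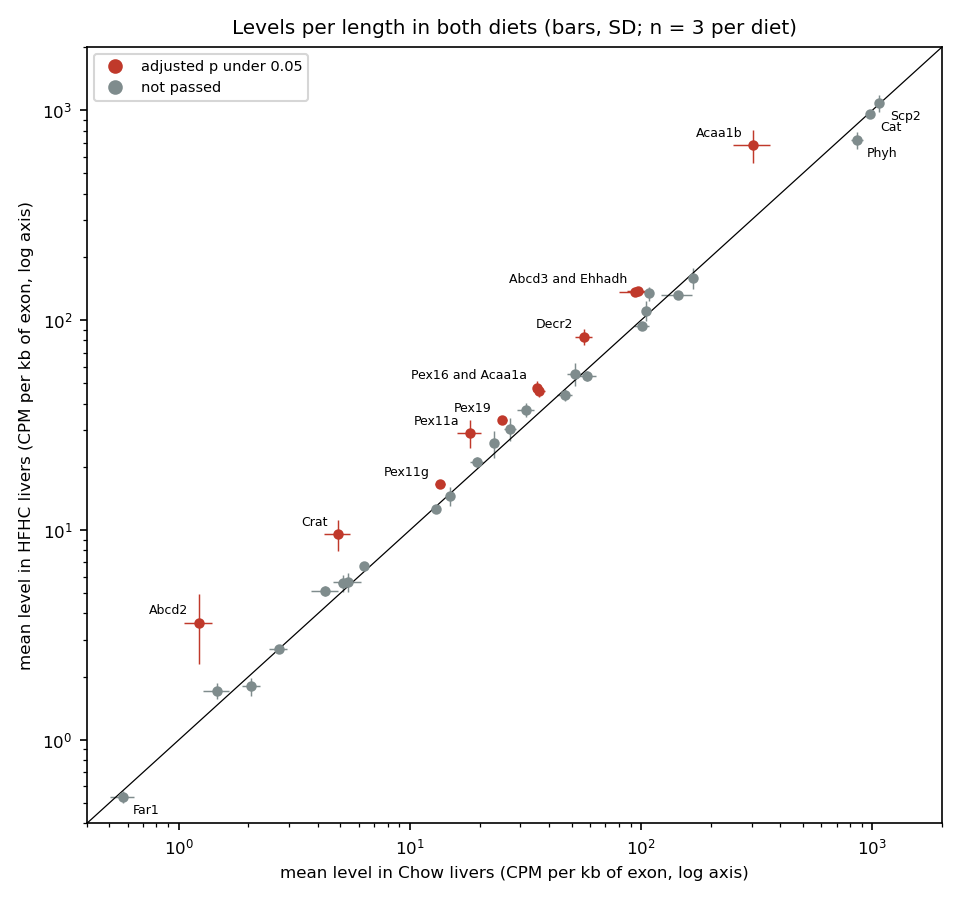
Mean level in HFHC livers (vertical) against Chow livers (horizontal) in CPM per kilobase of exon, both on log axes, with bars of 1 SD and the line of equal levels (named: genes that passed, Scp2, Cat, Phyh and Far1). The 11 genes that passed lie above the line from Abcd2 (3.62 against 1.22) to Acaa1b (683 against 304), while Scp2, Cat and Far1 lie on or near it.

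The order of the livers within a diet varied with the gene. HFHC replicate 2 was the highest HFHC liver in 9 of the 11 genes that passed, and HFHC replicate 3 in 18 of the 25 that did not. The same shares over all tested genes are not given here, so whether this order is particular to these genes was not tested. Within a diet the coefficient of variation had a median over the 36 genes of 7.86% in HFHC and 7.43% in Chow livers, and it was largest for Abcd2 in HFHC (36.6%) and Acaa1b in Chow (18.1%). Clock genes also differed between livers. A clock index was taken as the difference in mean log2 CPM between 3 genes of one phase (Per2, Per3, Dbp) and 3 of the opposite phase (Arntl, Npas2, Clock), centred on its mean over the 6 livers. It was 0.46, 1.18 and 1.45 in HFHC livers and -2.07, 0.5 and -1.53 in Chow livers (exact two-sided permutation p = 0.2). Its mean was 1.03 in HFHC and -1.03 in Chow livers, so the index partly follows diet and a fit with both separates them poorly. With this index as a covariate, chosen after seeing the data, none of the 36 genes passed (adjusted p of 0.181 to 0.607 for the 11). Over all genes, 35 rose and 30 fell. The SE was larger with the index, at 0.24 against 0.16 for Acaa1b and 0.46 against 0.25 for Abcd2. Whether clock phase has a part in the changes was not tested. The log2 fold changes of the 11 lay between 0.23 and 1.39 in that fit, values whose sign the choice of genes by the first fit to the same livers largely sets. HFHC replicate 1 and Chow replicate 8 had nearly equal indices, and the levels of the 11 genes in the first were 1.14 (Acaa1a) to 1.97 (Abcd2) times those in the second, an order that the choice of genes by p largely fixes.

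**Figure D5:**
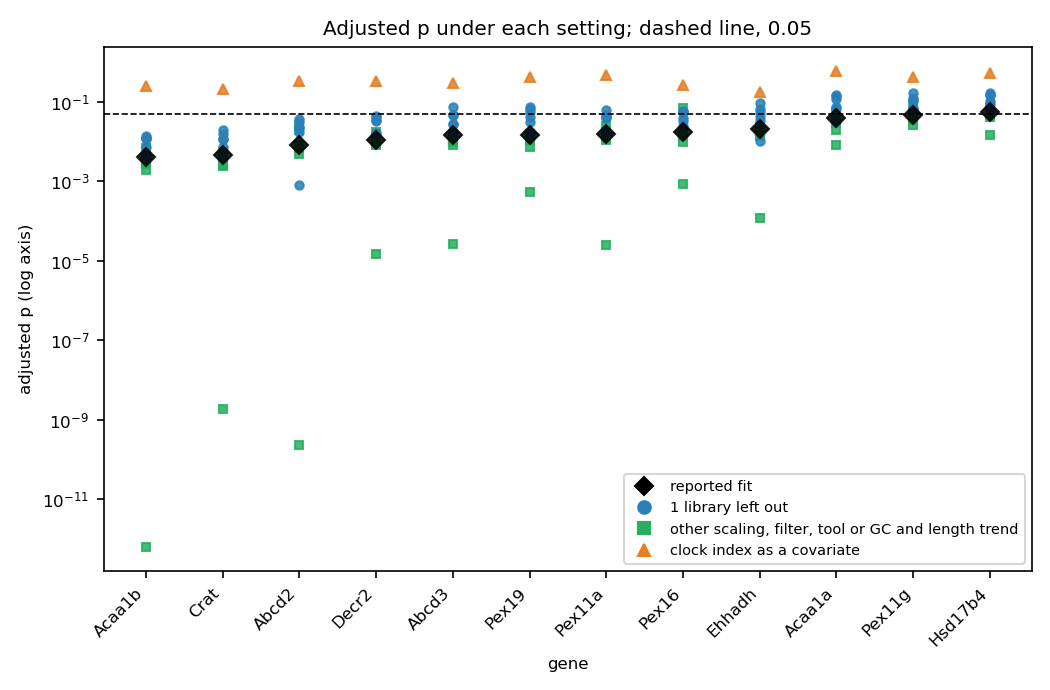
Adjusted p (vertical, log axis) of the 11 genes that passed and of Hsd17b4 in the reported fit (diamonds), with 1 library left out (circles), with other scaling, filter, tool or trend correction (squares) and with the clock index as a covariate (triangles). Acaa1b, Crat, Abcd2 and Decr2 stay under the dashed line at 0.05 in all settings except the clock covariate, where no gene does.

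Of a list of 46 other peroxisomal genes, 44 had a row and 41 were tested. By edgeR 7 of these rose and none fell, beside 3.38% and 3.30% of all tested genes. The log2 fold changes of the 7 were 0.33 to 0.53, and the median over the 41 was 0.11. At an unadjusted p under 0.05, 17 were higher and 2 lower, beside 10.8% and 11.5% of all tested genes. DESeq2 called 9 higher and 1 lower, beside 4.10% and 4.52% of the 14605 genes to which it gave an adjusted p. The count of 7 was not stable, at 3, 1 and 2 without HFHC replicates 1, 2 and 3 and at 0, 3 and 1 without Chow replicates 7, 8 and 9. Over all tested genes the count of 503 was 290, 267 and 382 and then 207, 527 and 264 in the same order. Ephx2, the soluble epoxide hydrolase, had 690.1, 657 and 674 CPM in HFHC livers and 518, 555 and 492 CPM in Chow livers (0.37 ± 0.08, adjusted p = 0.0288), and kept its call only without Chow replicate 8 among those 6 fits. Dhrs7b, which completes the ether lipid precursor after Agps, had 20.7, 21.7 and 21.7 CPM in HFHC livers and 15.5, 16.4 and 17.4 CPM in Chow livers (0.38 ± 0.09, adjusted p = 0.0318), a call lost in all 6 (0.0533 to 0.132). Of 17 mitochondrial beta-oxidation genes, 5 rose and none fell by edgeR, beside 3.38% and 3.30% of all tested genes. All 17 had a log2 fold change above 0, with a median of 0.19, and none was lower at an unadjusted p under 0.05. HFHC livers were all higher than Chow livers for 13 of the 17, beside 13.5% of all tested genes. Of the 36 peroxisomal genes, 25 were above 0 and 13 had all HFHC livers higher.

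Promoter windows from RefSeq (GRCm38.p6, the build of mm10), 250 bases before and 50 after each start, were found for 30 of the 36 genes and not for Pex2, Pex19, Hsd17b4, Abcd2, Amacr and Crat. Upstream bases of 4 genes that rose are shown because they hold from 1 to 21 CG pairs (100 bases each, 5′ to 3′ on the strand of the gene, with CG in capitals). They lie at chr9:119157094-119157193 (Acaa1b), chr7:79743132-79743231 (Pex11a), chr16:21787835-21787934 (Ehhadh) and chr3:121815303-121815402 (Abcd3), all on the minus strand.
Acaa1b: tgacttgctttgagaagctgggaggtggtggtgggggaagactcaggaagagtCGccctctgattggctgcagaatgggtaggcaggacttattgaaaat
Pex11a: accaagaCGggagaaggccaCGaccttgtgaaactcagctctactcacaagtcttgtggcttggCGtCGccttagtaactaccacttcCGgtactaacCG
Ehhadh: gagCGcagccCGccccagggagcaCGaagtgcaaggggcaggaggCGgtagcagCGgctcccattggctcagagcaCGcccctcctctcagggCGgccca
Abcd3: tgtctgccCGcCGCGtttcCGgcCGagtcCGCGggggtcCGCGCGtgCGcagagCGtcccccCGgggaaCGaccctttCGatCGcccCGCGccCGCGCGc
CG occurs least often in the stretch of Acaa1b, 6 times in that of Pex11a, 7 times in that of Ehhadh and most often in that of Abcd3. The ratio of observed to expected CG over the whole window was 0.284, 0.527, 0.515 and 1.116 for these genes, with a median of 0.714 over the 35 windows of the 30 genes and 0.384 over all 32851 windows. A direct repeat of AGGTCA with any 1 base between the copies, the textbook form of a PPAR response element, was searched on both strands with at most 2 mismatches at its 12 fixed bases. It matched in 2 of the 35 windows (5.71%), those of Cat and Acox2, neither of which passed the test, and in 3.86% of all windows. Abcd2, Crat and Pex19, which rose, had no window, and sites outside the windows were not searched. The windows of Acaa1a, which rose (chr9:119341044-119341343), and of Scp2 and Eci2, which did not pass, lie inside the gene. For these the outermost annotated start was not searched. The match of Cat begins 204 bases before the start and is shown as the upstream one of the pair (chr2:103485315-103485387, minus strand, capitals mark the match).
Cat: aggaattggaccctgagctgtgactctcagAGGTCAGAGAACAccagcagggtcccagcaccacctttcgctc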

How the data were processed

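RNA from 6 mouse livers, 3 per diet, was sequenced after rRNA depletion with a stranded TruSeq kit on a NextSeq500, per the labels' protocols. STAR 2.7.3a, Partek 9 and the build mm10 are named in the submitters' processing notes. The table deposited by the authors holds expected counts per gene with no normalization, and 22.4% of its values were fractional (tolerance 0.01). How reads were counted, with which strand setting and annotation, is not stated in the labels. Mice were separate animals, no batch or pairing is labelled, and each p-value reflects only the variation among these animals.

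Counts were rounded and filtered with filterByExpr (minimum count 10), which kept 14896 genes. The fit was edgeR 4.0.16 with TMM factors (0.9705 to 1.0216), no covariate, and an SE equal to the log2 fold change divided by the square root of F. Alternatives used DESeq2 1.42.0, limma 3.58.1, other factors, no filter, each library left out and, with mgcv 1.9.3, a correction for GC content and length. The analysis was tested on simulated data. One count stood for 0.0318 to 0.0379 CPM, and the 36 genes held 112 to 123469 counts per library, so that depth limited none of them as a count of 0 would. The gene ends in the table lie 1 base past those of GENCODE M21 and are printed without that base. R 4.3.3, Python 3.11.15 and biopython 1.88 were used.

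The 36 genes, the lists and the tests were chosen with earlier results of these data known. Values in every liver were to be given for genes that passed and, in each role without one, for the gene with the smallest p, and for up to 4 called genes of the list of other peroxisomal genes and 1 further gene. Some genes that this rule gave are not reported here. Protein sequences were not used here.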

Additional observations from a re-analysis of the deposited data

How the results depend on the processing

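No paired analysis was possible because the labels give the diets no shared replicate numbers. The count of 36 genes that rose, 11 in the reported fit, ran from 4 (without Chow replicate 7) to 10 with 1 library left out and was 8 to 12 with other factors, no filter, DESeq2, limma-voom or a GC and length correction, and 10 with Acaa1a and Acaa1b summed. It was 0 with the clock index as a covariate, a fit chosen after seeing the data. That fit has 1 degree of freedom less, and its index partly follows diet. None of the 36 fell in any of these fits. Acaa1b, Crat, Abcd2 and Decr2 passed in every fit except that with the clock index. Other peroxisomal genes that rose, 7 in the reported fit, numbered 0 to 3 with 1 library left out and 0 with the clock index. Those that fell, 0 in the reported fit, numbered 1 with DESeq2, 2 with weighted limma-voom, 2 after the GC and length correction and 0 to 1 with 1 library left out. Over all genes, 503 higher and 491 lower became 207 to 527 and 154 to 553 with 1 library left out. They became 35 and 30 with the clock index, and 704 and 790 with weighted limma-voom.

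Changes of sign touched genes near 0 that did not pass. With weighted limma-voom the log2 fold changes of Pex7 and Scp2 were -0.01 and -0.03. After the GC and length correction those of Pex13, Acox3, Pecr and Far1 were 0.08, -0.03, -0.01 and 0.09. With the clock index those of Acox3, Cat, Scp2, Crot and Pipox were -0.11, 0.02, -0.03, 0.14 and 0.05. Leaving out 1 library gave ranges of -0.03 to 0.14 (Pex7), -0.11 to 0.04 (Pex13), -0.05 to 0.08 (Acox3), -0.06 to 0.09 (Scp2), -0.21 to 0.01 (Crot), -0.0021 to 0.16 (Pecr) and -0.15 to 0.01 (Far1). The cause was not tested. Estimates of precision rest on 3 livers per diet.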
